A study of Rattus norvegicus with 3 samples.

Results

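The immediate-early factors considered here are 10 transcription factor genes: Fos, Fosb, Fosl1, Fosl2, Jun, Junb, Jund, Egr1, Atf3 and Myc. They were chosen by gene name, and probes were assigned to them through the RefSeq accession that the array design gives for each probe. Of the 10 genes, 8 had a probe named in this way, with 9 probes in all, among 13351 named genes and 10015 genes that were above background on at least 1 array. No named probe was found for Fosb and Egr1.

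Fos and Jun proteins bind DNA as pairs held together by a leucine zipper, and these pairs form the factor AP-1, which acts on a short element in many promoters. Several of the genes are silent in resting cells and are switched on within minutes by serum, growth factors or stress, after which their products set the level of secondary genes for proteases, growth factors and cell cycle regulators. In bone, Fos is known for its role in osteoclast formation and for causing osteosarcoma when it is overexpressed in mice, and Myc, which works as a pair with Max, drives ribosome production and growth.

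The study profiled 3 kinds of rat cells of the F344 strain by 1-colour microarray. The osteosarcoma line COS1NR and the malignant fibrous histiocytoma (MFH) line MFH1NR were each derived from a tumor induced by 4-hydroxy quinolone 1-oxide, and the methods describe both as p53 mutant. The mesenchymal stem cells (MSCs) were cells of femoral marrow, with no treatment named, that had been selected only by growth on plastic. There was 1 array per cell type and each sarcoma was represented by 1 cell line, so no difference could be tested and all ratios compare single arrays.

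The intensities are those of Agilent Feature Extraction, with background already subtracted, and each was divided by the 75th percentile of its own array, which was 589 in MSCs against 774 in COS1NR and 994 in MFH1NR. Values below are these scaled intensities unless named otherwise, and a log2 ratio is the difference of their log2 values. A gene was counted as higher or lower from a 2-fold ratio. Brightness differs between probes, so levels are compared between arrays for 1 probe and never between genes. The only measured spread lay within arrays. Probes printed 10 times gave a spread of 0.0671 to 0.0749 (SD) for a log2 ratio from single spots, and the 2 probes of a gene differed by a median of 0.15 (MFH1NR to COS1NR) to 0.31 (MFH1NR to MSC) in their log2 ratio, with 10% of genes beyond 0.59 to 0.99. Both sarcomas shared a slide and the MSCs lay on another, so in a comparison with MSCs the slide cannot be told apart from the cell type, and neither can the medium, which held more serum for MSCs than for the lines.

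The labels were checked against markers. Of 15 macrophage and osteoclast markers, 15 were well above background in MSCs, 9 in COS1NR and 8 in MFH1NR. All 15 were lower in both lines. Summed over the list, the scaled intensity came to 233 in MSCs against 9.84 in COS1NR and 12.0 in MFH1NR, and Ptprc, Itgam, Adgre1, C1qa, Fcgr3a and Lyz2 were not well above background in either line. The MSC markers Nt5e, Thy1, Eng and Cd44 were well above background in MSCs, and 2 of these 4 were in COS1NR and 3 in MFH1NR. Cd44 lay within 2-fold of MSCs in both lines, and Thy1 did in MFH1NR. Of 5 osteoblast markers, 4 were well above background in MSCs and in COS1NR, the exception in both being the osteoblast factor Sp7, and 5 in MFH1NR. In the osteosarcoma line 3 of the 5 (Alpl, Ibsp and Bglap) were lower than in MSCs and none was higher. Of 7 proliferation markers, 7 were higher in both lines. Of all 10015 genes, 14.6% were lower and 12.2% higher in both lines, and 22.3% were lower in COS1NR. The part of the macrophage markers and of proliferation in the results below was not tested. In RNA of whole cultures, fewer cells of a type and less RNA per cell cannot be told apart.

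All 8 measured factors were well above background on all 3 arrays, and the lowest intensity among them, 346 for Fosl2 in MSCs, stood against background limits of 17.9 to 30.1. In COS1NR, 1 of the 8 was higher than in MSCs (Fosl1) and 3 were lower (Junb, Atf3 and Myc), where 21.7% of all genes were higher and 22.3% were lower. In MFH1NR, 2 were higher (Fosl2 and Jun) and 5 were lower (Fos, Fosl1, Junb, Atf3 and Myc), where 20.8% of all genes were higher and 23.2% were lower. Junb, Atf3 and Myc were lower in both lines, as were 14.6% of all genes, and no factor was higher in both, against 12.2% of all genes. The median log2 ratio of the 8 was -0.38 in COS1NR and -1.27 in MFH1NR, against 0.11 and 0.01 over all genes. Without scaling between arrays the median in COS1NR became 0.01 and the count of lower factors in MFH1NR became 2.

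**Figure D1:**
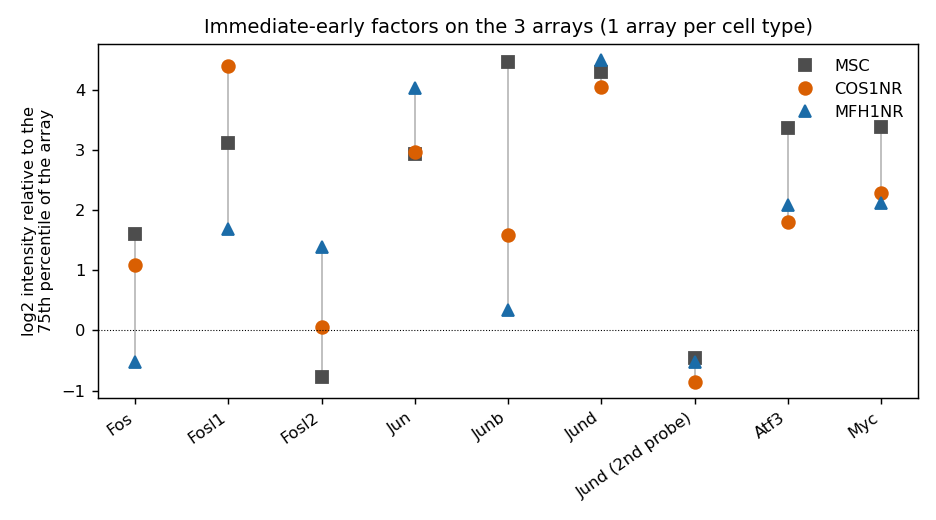
Scaled intensity (log2, relative to the 75th percentile of the array) of the 8 measured factors in MSCs, COS1NR and MFH1NR, 1 point per array and probe. Jund is shown with both of its probes. Junb is lower in both lines than in MSCs. COS1NR is the highest array for Fosl1 (21.0) and MFH1NR for Fosl2 (2.62, both before the log2 step).

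Fos, the founding partner of Jun in AP-1, was lower in MFH1NR than in the other cells. It read 3.03 in MSCs, 2.13 in COS1NR and 0.696 in MFH1NR. MSCs and COS1NR lay within 2-fold of each other (log2 ratio -0.51), while MFH1NR was 4.35-fold lower than MSCs and had a log2 ratio of -1.61 to COS1NR. Of all genes, 13.1% lay at least as far below MSCs in MFH1NR as Fos did.

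Fosl1 encodes Fra-1, a Fos relative without the strong activation domain of Fos and a frequent partner of Jun in invasive tumor cells. It read 8.62 in MSCs against 21.0 in COS1NR and 3.22 in MFH1NR. COS1NR was the highest of the 3 arrays and MFH1NR the lowest, with MSCs between them. COS1NR was 2.44-fold above MSCs, MFH1NR had a ratio of 0.373 to MSCs, and COS1NR exceeded MFH1NR 6.54-fold. Without scaling the log2 ratio of MFH1NR to MSCs was -0.67, within 2-fold. A difference between the lines as large as the reported one in the same direction was met by 5.67% of all genes.

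Fosl2 encodes Fra-2, the other truncated Fos relative, which takes part in osteoblast and cartilage differentiation. It read 0.587 in MSCs, then 1.04 in COS1NR and 2.62 in MFH1NR, the reverse of the order of Fosl1 between the lines. MFH1NR was 4.46-fold above MSCs and 2.51-fold above COS1NR, whereas COS1NR was 1.78-fold above MSCs (log2 ratio 0.83, or 1.22 without scaling, past 2-fold). The ratio of Fosl1 to Fosl2 does not depend on the scaling of arrays, and it was 16.4-fold lower in MFH1NR than in COS1NR and 11.9-fold lower than in MSCs. The ratio of Fosl2 to Fos was 19.4-fold higher in MFH1NR than in MSCs and 2.53-fold higher in COS1NR.

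The promoters of these Fos relatives are shown because Fosl1 and Fosl2 differed in opposite directions between the lines. They are the 250 bases before the start of each gene from RefSeq (GRCr8, 5′ to 3′ on the strand of the gene), at chr1:212183635-212183884 on the plus strand for Fosl1 and chr6:30039270-30039519 on the minus strand for Fosl2. Capitals mark a match to one of the motifs searched on both strands, which were the AP-1 site TGACTCA, the cyclic AMP element TGACGTCA, the E-box CACGTG, the EGR site GCGGGGGCG, the TATA box TATAAA and the serum response element (CArG box).
Fosl1: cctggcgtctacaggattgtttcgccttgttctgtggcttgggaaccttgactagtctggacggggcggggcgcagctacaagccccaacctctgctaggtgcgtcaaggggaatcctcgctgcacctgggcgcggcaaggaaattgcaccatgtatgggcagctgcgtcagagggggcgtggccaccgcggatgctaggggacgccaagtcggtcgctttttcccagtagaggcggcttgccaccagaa
Fosl2: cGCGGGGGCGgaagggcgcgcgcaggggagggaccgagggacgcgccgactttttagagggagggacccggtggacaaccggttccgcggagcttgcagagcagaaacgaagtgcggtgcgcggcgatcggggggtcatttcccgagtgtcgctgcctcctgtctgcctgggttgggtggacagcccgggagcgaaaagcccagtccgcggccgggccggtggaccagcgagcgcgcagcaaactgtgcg
The Fosl2 window held 1 EGR site, which begins 249 bases before the start, and the Fosl1 window held none of the 6 motifs. The search ran over windows of 300 bases, the 250 shown and the 50 that follow, and of 33469 rat promoter windows of that length 2.73% held the EGR site and 4.63% the AP-1 site.

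Among the Jun proteins, Jun and Junb differed in direction. Jun, the activating partner of Fos, was measured by a probe printed 10 times per array. The scaled intensity of its spots ran from 7.21 to 7.90 in MSCs (median 7.59), from 7.56 to 8.14 in COS1NR (median 7.71) and from 15.7 to 17.1 in MFH1NR (median 16.2). The spots of MSCs and COS1NR overlapped, and those of MFH1NR lay above all others. The log2 ratio to MSCs was 0.03 ± 0.0188 in COS1NR and 1.10 ± 0.0197 in MFH1NR (SE over 9 to 10 spots per array, which covers printing and scanning and neither cultures nor labeling). MFH1NR was thus 2.14-fold above MSCs and 2.10-fold above COS1NR.

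Junb, a weaker activator that can oppose Jun at its targets, had the largest ratio of the 8 factors in both comparisons with MSCs. It read 22.1 in MSCs, compared with 3.01 in COS1NR and 1.27 in MFH1NR, corresponding to deposited intensities of 12990.3, 2327 and 1265. It was 7.33-fold lower in COS1NR and 17.3-fold lower in MFH1NR, and 8.49% and 6.20% of all genes lay at least as far below MSCs in these lines. Junb was measured by 1 probe printed once per array, as were Fos, Fosl1, Fosl2 and Atf3, so no spread over spots or probes was available for them. MFH1NR was also lower than COS1NR (log2 ratio -1.24, or -0.88 without scaling). The ratio of Jun to Junb was 7.49-fold higher in COS1NR and 37.1-fold higher in MFH1NR than in MSCs, and 4.95-fold higher in MFH1NR than in COS1NR.

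Jund, the Jun protein that is present in most resting cells, was close to equal on the 3 arrays. Its brighter probe read 19.7 in MSCs against 16.5 in COS1NR and 22.5 in MFH1NR, and its other probe 0.731, 0.555 and 0.699. No pair of arrays differed by 2-fold with either probe. The log2 ratio to MSCs was -0.26 and -0.40 in COS1NR and 0.19 and -0.06 in MFH1NR, so the probes differed in sign in MFH1NR, and without scaling the brighter probe gave 0.14 and 0.95.

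The promoters of Junb and Jund are shown as those of the Jun gene furthest from MSCs and of the one nearest to equal. They lie at chr19:40080876-40081125 on the plus strand for Junb and at chr16:18769772-18770021 on the minus strand for Jund (GRCr8, RefSeq), with motif matches in capitals as above.
Junb: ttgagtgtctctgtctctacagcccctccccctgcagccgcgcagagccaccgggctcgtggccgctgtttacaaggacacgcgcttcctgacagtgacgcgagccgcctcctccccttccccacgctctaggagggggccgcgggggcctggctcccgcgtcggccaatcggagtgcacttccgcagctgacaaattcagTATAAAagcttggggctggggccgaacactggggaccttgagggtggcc
Jund: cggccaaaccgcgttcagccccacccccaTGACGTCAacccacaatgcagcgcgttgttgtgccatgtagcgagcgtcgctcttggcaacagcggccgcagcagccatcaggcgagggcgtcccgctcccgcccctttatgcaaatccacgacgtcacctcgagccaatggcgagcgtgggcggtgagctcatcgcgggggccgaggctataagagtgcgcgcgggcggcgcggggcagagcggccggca
Junb held a TATA box that begins 49 bases before the start, a motif found in 14.2% of all promoters, and Jund held a cyclic AMP element at 221 bases, found in 1.83%. Of the other members with a promoter in the reference table, Fosb held a TATA box on the opposite strand at 180 bases and Egr1 held 2 CArG boxes, at 105 and 83 bases, a motif found in 1.64% of promoters. None of these 6 windows held the AP-1 site or the E-box, which was found in 6.42% of promoters, and a match describes letters and not binding.

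**Figure D2:**
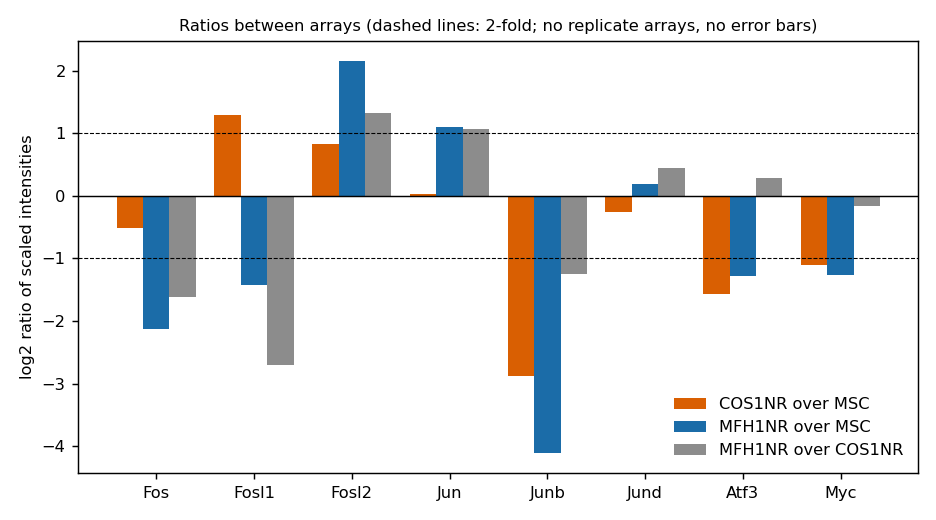
Log2 ratio of each factor for COS1NR to MSC, MFH1NR to MSC and MFH1NR to COS1NR, 1 array per cell type without error bars, with dashed lines at 2-fold. Junb has the lowest ratios to MSCs (-2.87 and -4.12), and Fosl1 stands at 1.29 in COS1NR and -1.42 in MFH1NR.

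Atf3, a stress-induced factor that pairs with Jun, was lower in both lines. It read 10.3 in MSCs, and 3.49 and 4.26 in COS1NR and MFH1NR. It was 2.96-fold lower in COS1NR and 2.43-fold lower in MFH1NR, where the log2 ratio without scaling was -0.52, within 2-fold. The lines differed from each other by a log2 ratio of 0.29, within the range over which 2 probes of a gene differed.

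Myc was also lower in both lines, and its probe was printed 10 times. The spots ran from 9.52 to 11.0 in MSCs (median 10.7), from 4.65 to 5.06 in COS1NR (median 4.90) and from 4.12 to 4.59 in MFH1NR (median 4.40). The spots of MSCs lay above those of both lines, and those of COS1NR lay just above those of MFH1NR. The log2 ratio to MSCs was -1.10 ± 0.0280 in COS1NR and -1.26 ± 0.0288 in MFH1NR (SE over spots). The ratio between the lines was -0.16, and without scaling it was 0.20, so its sign was set by the scaling. Without scaling the log2 ratios to MSCs were -0.71 and -0.51, within 2-fold, and with median scaling that of COS1NR was -0.94.

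**Figure D3:**
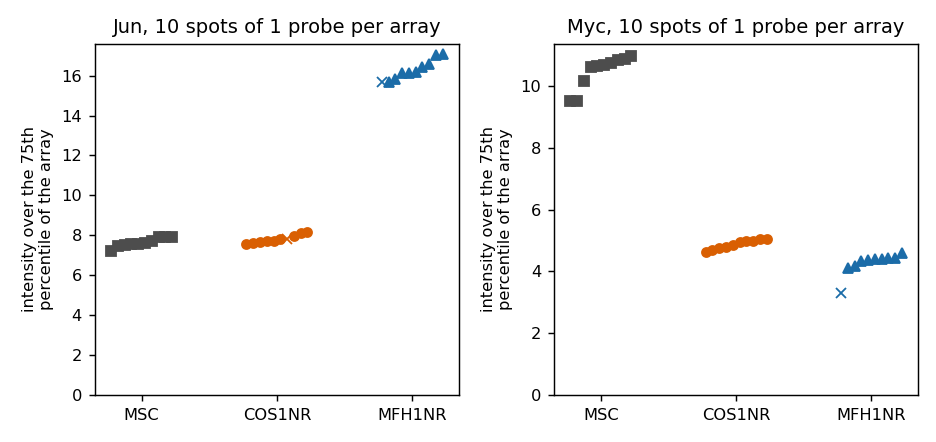
Scaled intensity (times the 75th percentile of the array) of the 10 spots of the Jun probe and of the Myc probe on each array. Crosses mark outlier spots, which were left out of the values in the text. Each point is 1 spot of the same hybridization and not a replicate culture. For Jun, the spots of MFH1NR lie from 15.7 to 17.1, above the spots of the other arrays, and for Myc the spots of MSCs lie highest.

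Set among all genes, the factors were spread over both tails for the lines against each other. In MFH1NR against COS1NR, 2 were higher (Fosl2 and Jun), 3 were lower (Fos, Fosl1 and Junb) and 3 lay within 2-fold, where 13.9% of all genes were higher and 16.0% lower. These arrays shared a slide. The macrophage and osteoclast markers differed between them in both directions, with 2 of 15 higher in MFH1NR and 3 lower. Of the 2 counted as higher, Fcgr3a was not well above background on either array, which leaves Ctsk. Ctsk, the osteoclast protease gene, read 0.0607 in COS1NR and 7.25 in MFH1NR, and Cd68, a macrophage marker, read 4.05 and 0.961. Their part in the differences between the lines was not tested. The median log2 ratio of the 8 was 0.06, against -0.11 over all genes.

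**Figure D4:**
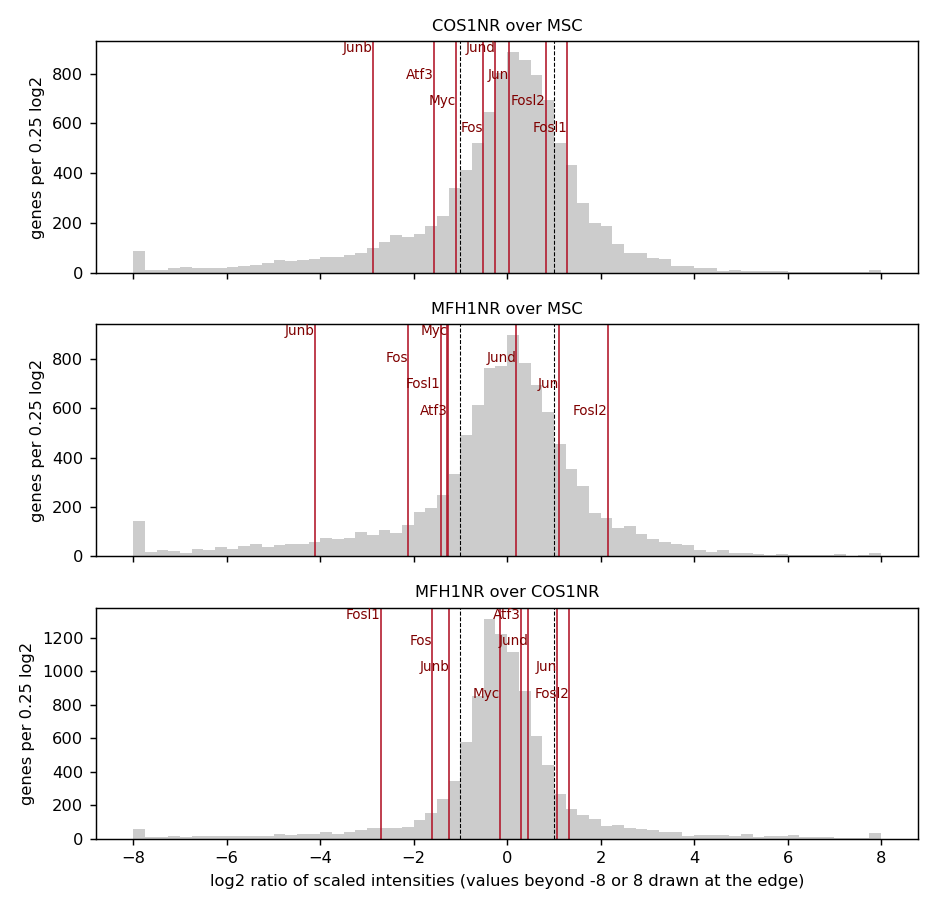
Distribution of the log2 ratio of the 10015 genes in each comparison (genes per 0.25 log2), with the 8 factors marked. In both comparisons with MSCs Junb lies furthest out among them, at -2.87 and -4.12, and between the lines Fosl1 lies furthest, at -2.71.

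The other genes of the immediate-early response were lower in the lines in most cases. Of 30 further genes of this class, 19 were lower and 2 higher in COS1NR and 21 were lower and 2 higher in MFH1NR, with median log2 ratios of -1.54 and -1.90. In both lines 15 were lower and only Ccn1, a secreted matrix protein, was higher, reading 2.26 in MSCs against 38.7 in COS1NR and 25.2 in MFH1NR. Over all genes 22.3% and 23.2% were lower, 21.7% and 20.8% were higher, 14.6% were lower in both and 12.2% were higher in both. The counts also stand beside the macrophage markers, which were lower in both lines as well.

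Egr2, a zinc finger factor of the same family as Egr1, had scaled intensities of 4.78 in MSCs and 0.287 in COS1NR and was not well above background in MFH1NR, at least 157.9-fold lower than in MSCs. The nuclear receptor gene Nr4a3 stood at 1.31 in MSCs and 0.0465 in MFH1NR, and in COS1NR it was not well above background and at least 31.1-fold lower. Btg2, an antiproliferative p53 target, stood at 23.1, 8.44 and 0.65 in MSCs, COS1NR and MFH1NR. Each of these genes was thus lower in both lines.

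Gadd45b, a stress response gene, was at 37.6 in MSCs, 3.90 in COS1NR and 4.27 in MFH1NR. Ccn2, encoding connective tissue growth factor, had log2 ratios of -6.42 in COS1NR and -1.86 in MFH1NR. Egr4, another EGR factor, had the opposite pattern in COS1NR, at 12.2-fold above MSCs, and was not well above background in MFH1NR. The lines therefore differed from each other for Ccn2 and Egr4 by more than the 2-fold threshold.

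Among 19 other leucine zipper partners of AP-1, 7 were lower and 2 higher in COS1NR and 9 were lower and none higher in MFH1NR, and 6 were lower in both. Of all genes, 22.3% and 23.2% were lower in these lines, 21.7% and 20.8% were higher, and 14.6% were lower in both. Batf, which pairs with Jun in lymphoid and myeloid cells, was not well above background in COS1NR (at least 24.7-fold lower) and 3.74-fold lower in MFH1NR. Maf was lower by 5.17-fold in COS1NR and, not being well above background there, by at least 69.1-fold in MFH1NR. Mafk and Crem were lower in both lines, with log2 ratios of -1.79 and -2.16 in COS1NR and -1.61 and -1.11 in MFH1NR.

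Upstream of these genes, the serum response factor Srf stood at 14.2 in MSCs, 12.0 in COS1NR and 11.8 in MFH1NR. Of 6 measured genes for this factor, its cofactors and the NAB corepressors of EGR proteins, none passed 2-fold in COS1NR and 2 were lower in MFH1NR (33.3%, against 23.2% of all genes), namely Nab1 (log2 ratio -1.78) and Nab2 (-1.11). In COS1NR 21.7% of all genes were higher and 22.3% lower. Of 11 kinases that act upstream of AP-1, 1 was higher and 4 were lower in COS1NR, and 1 was higher and 1 lower in MFH1NR. The share of lower kinases was 36.4% in COS1NR against 22.3% of all genes, and 9.09% in MFH1NR against 23.2%. Of the 4 counted as lower in COS1NR, Map2k7 was not well above background there. Its bound was at least 1.57-fold lower, short of 2-fold, and Map2k4 was 2.01-fold lower, just past the threshold. The ribosomal S6 kinase gene Rps6ka1 was the one higher in both, at 3.88, 10.9 and 16.7 in MSCs, COS1NR and MFH1NR, while its relative Rps6ka2 was not well above background in either line.

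Known AP-1 target genes were mostly lower too. Of 20, 12 were lower and 3 higher in COS1NR and 13 were lower and 2 higher in MFH1NR, with median log2 ratios of -1.78 and -2.92, and 10 were lower and none higher in both. Over all genes 22.3% and 23.2% were lower, 21.7% and 20.8% were higher, and 14.6% were lower in both. Proteases of the plasminogen and matrix systems were among them. Plau, the urokinase gene, stood at 18.2 in MSCs, was at least 478.3-fold lower in COS1NR, where it was not well above background, and 290.9-fold lower in MFH1NR. Mmp13, a collagenase of bone and cartilage, was 80.8-fold and 172.3-fold lower. Macrophages and osteoclasts also express several of these genes.

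Several targets separated the lines, in either direction. Areg, an epidermal growth factor receptor ligand, stood at 1.26 in MSCs and 2.84 in COS1NR and was not well above background in MFH1NR. Mmp3, the stromelysin gene, stood at 0.632 in MSCs, 0.367 in COS1NR and 9.86 in MFH1NR, 26.9-fold above COS1NR. Sphk1, a sphingosine kinase, was 40.8-fold lower in COS1NR and 3.60-fold lower in MFH1NR. With 1 array per line no relation between a factor and a target could be tested.

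Among 9 measured EGR1 targets, 5 were lower and 1 higher in COS1NR and 6 were lower and none higher in MFH1NR, where 22.3% and 23.2% of all genes were lower and 21.7% and 20.8% higher. Thbs1, an inhibitor of angiogenesis, was 11.2-fold and 11.7-fold lower, and Pdgfa, a growth factor gene, 3.90-fold and 31.2-fold lower. Of 12 genes of the ATF4 and ATF3 stress response, 3 were lower and 2 higher in COS1NR and 4 were lower and none higher in MFH1NR, and only Nupr1 and Ppp1r15a were lower in both. The lower share was 25% in COS1NR and 33.3% in MFH1NR, against 22.3% and 23.2% of all genes, and the higher share was 16.7% in COS1NR and 0% in MFH1NR, against 21.7% and 20.8%. Lower in both were 2 of 12, against 14.6% of all genes.

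Most Myc targets lay within 2-fold of MSCs, namely 22 in COS1NR and 20 in MFH1NR, as did 5610 and 5607 of the 10015 genes. Of 28 established target genes, for ribosome production, metabolism, chaperones, translation and the cell cycle, 5 were higher and 1 lower in COS1NR and 5 were higher and 3 lower in MFH1NR, and the median log2 ratio was 0.62 and 0.42, against 0.11 and 0.01 over all genes. Only Wdr43, for a factor of ribosome assembly, was higher in both (log2 ratio 1.37 and 2.72), where 12.2% of all genes were. Only Ccnd2, the cyclin D2 gene, was lower in both, where 14.6% of all genes were. The share of higher genes was 17.9% in both lines, against 21.7% and 20.8% of all genes, and that of lower genes 3.57% and 10.7%, against 22.3% and 23.2%. The proliferation markers beside them had median log2 ratios of 2.29 and 2.22.

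Of 10 measured genes of the Max network, which holds the partners and rivals of Myc, 4 were higher in COS1NR (40% against 21.7% of all genes) and 2 in MFH1NR (20%, near the 20.8% of all genes). In COS1NR 0 were lower, against 22.3% of all genes, and in MFH1NR 1 was (10% against 23.2%). Of the 4 higher in COS1NR, Mnt, Ruvbl1 and Mlxipl lay just past the threshold, at 2.02-fold, 2.05-fold and 2.14-fold. The unscaled intensity of Mlxipl in MSCs was 20.8, near the background limit of 17.9. Max, the obligate partner, stood at 1.29 in MSCs against 0.937 in COS1NR and 0.529 in MFH1NR, and was lower in MFH1NR (log2 ratio -1.28). Mxd3, a Max partner that opposes Myc and is expressed in dividing cells, was 8.65-fold and 9.54-fold higher. Ruvbl1, an ATPase that binds Myc, was 2.05-fold and 2.30-fold higher in the lines.

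**Figure D5:**
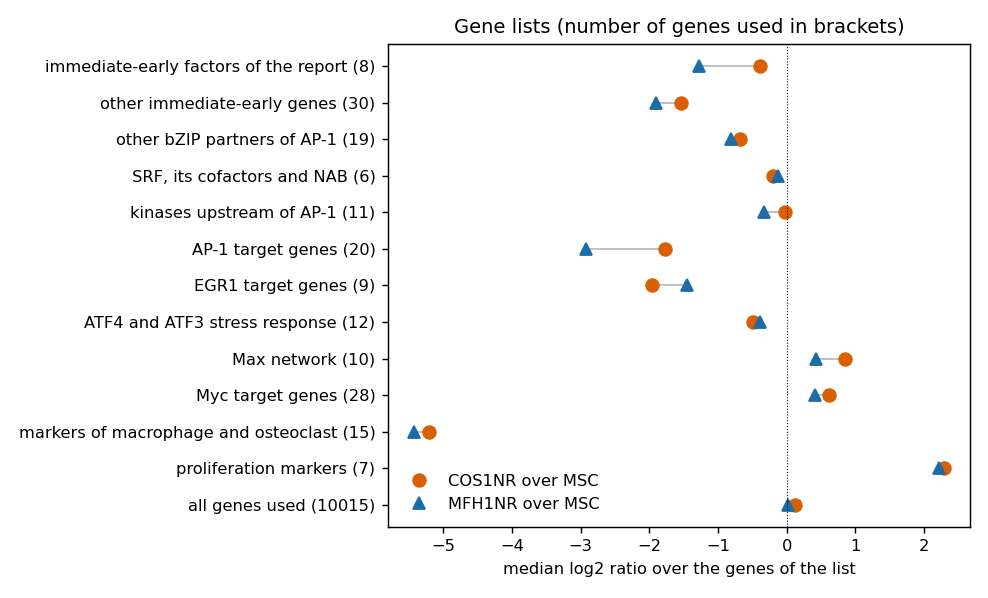
Median log2 ratio over the measured genes of each list for COS1NR and MFH1NR against MSCs, with the number of genes in brackets. The macrophage and osteoclast markers lie lowest (-5.20 and -5.42), the immediate-early genes and AP-1 targets lie below 0, and the proliferation markers lie highest (2.29 and 2.22). Of the 15 macrophage and osteoclast markers, only 9 were well above background in COS1NR and 8 in MFH1NR, so these medians include values below background. Their COS1NR median was -4.50 with values raised to the background limit and -3.92 with the normexp correction.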

How the data were processed

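Cy3-labeled cRNA from 3 cell types was hybridized to 1 whole rat genome Agilent array each. The authors deposited Feature Extraction output, whose processed intensity is background-subtracted and not scaled between arrays. The deposited series table held these processed intensities for all 45018 spots of each array, within a relative tolerance of 1e-06. The file headers give version 10.5.1.1 and the submitters' processing notes 9.1. The methods and labels name different RNA isolation and labeling kits.

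Control spots and outlier spots (187 to 217 outliers per array) were left out, spots of a probe were averaged on the log2 scale, and each array was centred on its 75th percentile. Of 41012 probes, 16815 were named by a RefSeq table of GRCr8, an assembly later than the array design. A gene took its brightest probe and was used where it stood well above background on 1 array or more. For a probe that was not, a fold is a bound against the higher of its own value and the lowest value well above background, while counts and medians used processed values. Members and lists were chosen with earlier results of these data known. Genes named besides the members are, per list, up to 5 with the largest mean log2 ratio among those beyond 2-fold in the same direction in both lines, and up to 3 that separate the lines most. In the Srf and Max lists any gene could be named. Some genes of the lists are not reported here by name. No test was possible, since there was 1 array per cell type, and this number limits the precision.

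Other settings tried were quantile normalization, median scaling, no scaling, other filters, the mean of all probes, a floor at the background limit and a 3-fold threshold. A normexp correction (offset 50) on the median spot intensity was added after the data were seen. The counting step was tested on simulated data. Python 3.11.15, numpy 2.4.6, pandas 2.3.3, R 4.3.3 and limma 3.58.1 were used.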

Additional observations from a re-analysis of the deposited data

Results flagged for a closer look

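Of the 181 measured genes of all lists, 7 (3.87%) had COS1NR and MFH1NR on opposite sides of MSCs, each by 2-fold or more, near the share of all genes (319 of 10015, or 3.19%). COS1NR was the higher line in 5 of the 7 and in 164 of the 319. The 5 are Fosl1 and 4 genes taken by the naming rule, which picks genes that separate the lines, and the other 2 were named after their values were seen: Sgk1 (log2 ratio -2.05 in COS1NR and 1.82 in MFH1NR) and Spp1 (-1.09 and 1.29). With 1 array per line the difference was not tested. Fosl1 stood at a log2 ratio of 1.29 (COS1NR to MSC) and -1.42 (MFH1NR to MSC), a difference of -2.71. The AP-1 target Areg had 1.17 in COS1NR and lay at -5.38 or below in MFH1NR, where it was not well above background, and the difference was -6.55 or below (COS1NR at least 93.9-fold higher). Il6, another AP-1 target, differed by -5.92 (1.44 and -4.48). The EGR1 target Igf2 differed by -3.93 (1.51 and -2.42), and the Myc target Shmt2, a mitochondrial enzyme of serine metabolism, by -2.21 (1.19 and -1.02). For Fosl1 the ratio in MFH1NR was within 2-fold without scaling (-0.67). For Shmt2 it was within 2-fold without scaling (-0.26), with median scaling (-0.80) and with quantile normalization (-0.83). Areg, Il6 and Igf2 stayed past 2-fold on opposite sides of MSCs in every setting run, although Areg gave no value where a probe had to be well above background on all arrays.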

How the results depend on the processing

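No ratio of a single factor past 2-fold changed direction under the alternatives run, whereas the median of the factors in COS1NR changed sign without scaling, and 47 of 54 counts lay within 1.5 times the reported one. Without scaling, the factors higher in COS1NR became 2, those lower in MFH1NR than in MSCs became 2, and the medians were 0.0097 (COS1NR to MSC), -0.51 (MFH1NR to MSC) and 0.43 (MFH1NR to COS1NR). Unscaled, the median of all genes was 0.51, 0.77 and 0.25. At a 3-fold threshold, 0 factors were higher and 1 was lower in COS1NR, 1 was higher and 2 were lower in MFH1NR, and 0 were higher in MFH1NR than in COS1NR. Of 195 values for single factors, 26 moved, judged by the size of the change and not by crossing 2-fold. Leaving out the scaling shifts all ratios of a comparison by the same amount. Myc in COS1NR stayed past 2-fold in 6 of 8 settings, and its -0.94 under median scaling did not count as moved. Of 360 medians of the other lists, 84 moved. A normexp correction on the mean spot signal was not run, since the files used here hold the median signal. No paired analysis was possible because each cell type had 1 array.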
